A study of Zea mays with 12 samples.

Results

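The structural genes of flavonoid and anthocyanin synthesis in maize seeds were followed over 2 lines and 2 stages. They are 8 of the 41430 gene models listed for each library, and they were chosen by gene identifier: the chalcone synthase genes c2 and whp1, chi1, fht1, pr1, a1, a2 and bz1. All 8 passed the filter on low counts that left 24941 models for testing. The data are RNA-seq of whole seeds with 3 libraries per group. The groups were seeds of the transgenic line L100 at 15 days after pollination (DAP), L100 at 10 DAP, wild-type inbred Q319 at 15 DAP and wild-type Q319 at 10 DAP. The labels name neither the transgene of L100 nor its promoter, and they do not say whether the line is 1 clone or whether the libraries of a group came from separate plants. The p-values therefore measure only the spread between these libraries.

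Flavonoids are built in the cytosol from a phenylpropanoid acid and malonyl units. Chalcone synthase makes the first product, chalcone isomerase closes its ring, and a chain of oxygenases and a reductase leads to leucoanthocyanidins, which are then oxidised and given a sugar to become anthocyanins. In the maize kernel anthocyanins colour the aleurone, the outermost endosperm layer, where the MYB regulator c1 and the bHLH regulator r1 act together on these genes, while phlobaphenes colour the maternal pericarp under the MYB regulator p1. In whole seeds, fewer cells of a type and less RNA per cell cannot be told apart.

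All values given as CPM are counts per 1000000, scaled between libraries by the TMM method, and all tests are edgeR quasi-likelihood F tests with Benjamini-Hochberg adjustment over 24941 genes at a threshold of 0.05. Total counts ranged from 14014035 to 22370566 per library, so that 3 counts corresponded to 0.152 to 0.23 CPM. Within groups, log2(CPM + 1) of all tested genes correlated between libraries at 0.952 to 0.987. The closest pair was replicates 1 and 2 of L100 at 15 DAP, whose chi-square per gene was 6.71 against 11.6 to 41.3 for the other pairs. L100 replicate 3 at 10 DAP had the lowest level of its group in c2, whp1, chi1, fht1, pr1 and a1.

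Between the lines, pr1 was the only one of the 8 genes that passed the test, and it did so at 10 DAP, where it was 8.35-fold higher in L100. Between the stages, fht1 and a1 were lower at 15 DAP than at 10 DAP in both lines, and c2 was higher at 15 DAP in L100. The genes chi1, a2 and bz1 passed no test, nor did whp1, whose levels in L100 at 10 DAP stood above every wild-type library. No gene passed the test of a genotype by stage interaction.

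**Figure D1:**
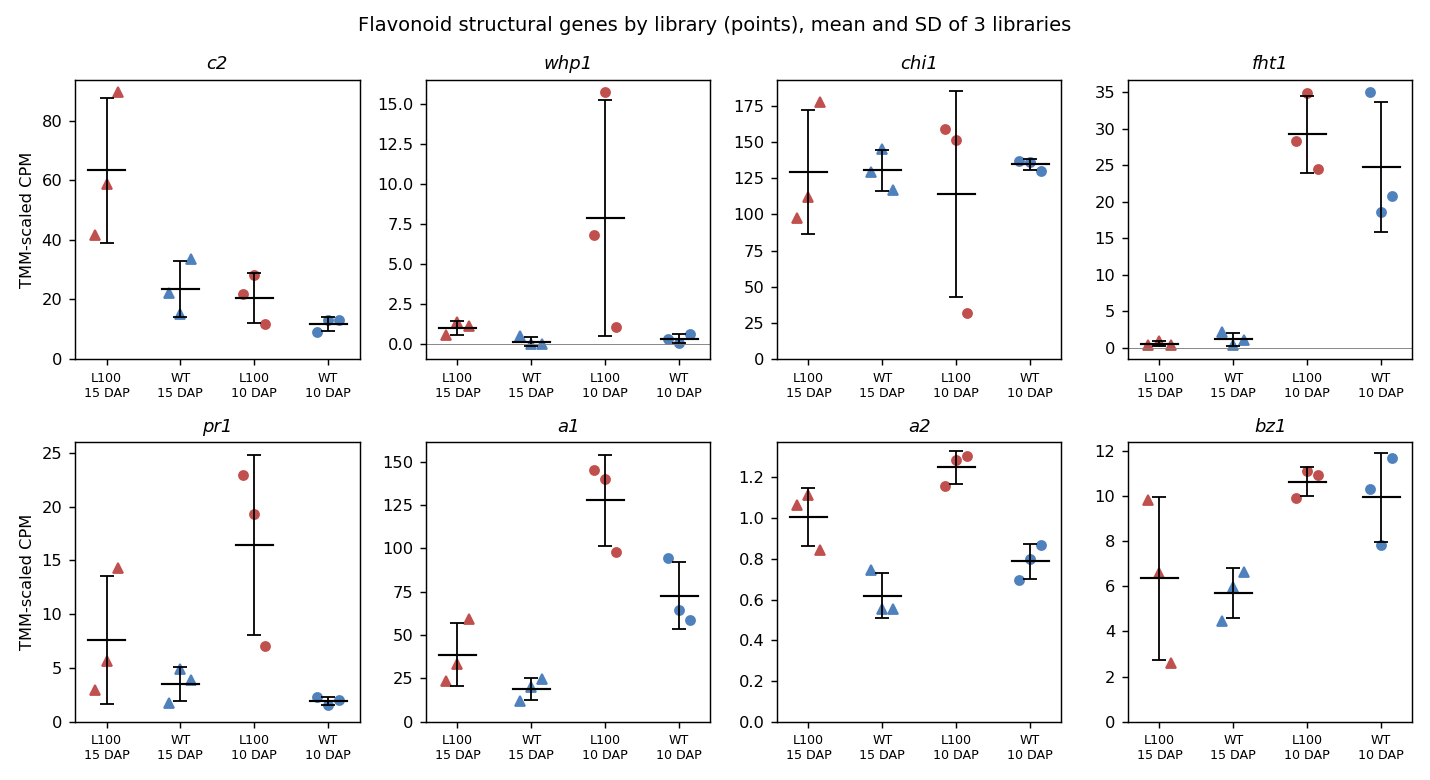
Level of each of the 8 genes in the 12 libraries (y axis, TMM-scaled CPM; points are libraries, bars the mean and SD of 3). The groups are L100 and WT at 15 DAP and L100 and WT at 10 DAP; the panel for fht1 shows 0.307 to 0.973 CPM in L100 and 0.370 to 2.12 CPM in WT at 15 DAP, against 24.6 to 34.9 CPM in L100 and 18.6 to 35.0 CPM in WT at 10 DAP.

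Chalcone synthase, which catalyses the committing step, is encoded in maize by c2 and its duplicate whp1. The gene c2 (GRMZM2G422750; B73 RefGen_v3, chromosome 4, 192758631 to 192761448, plus strand) had 41.6, 58.6 and 89.7 CPM in L100 at 15 DAP, against 22.3, 15.0 and 33.5 CPM in wild type. At 10 DAP it had 21.97, 28.1 and 11.6 CPM in L100, against 9.10, 13.0 and 13.2 CPM in wild type. The lines did not overlap at 15 DAP and overlapped at 10 DAP through L100 replicate 3. The log2 fold change of L100 over wild type was 1.42 at 15 DAP (SE 0.38, edgeR adjusted p = 0.052) and 0.80 at 10 DAP (SE 0.39, adjusted p = 0.28), and neither passed. The adjusted p at 15 DAP lay near the threshold and moved to both sides of it. With single libraries left out it was lowest at 0.026, for L100 10 DAP replicate 3, and highest at 0.160, for wild-type 15 DAP replicate 2, with log2 fold changes of 1.08 to 1.76. It was also below 0.05 without L100 10 DAP replicate 2 (0.045) or wild-type 15 DAP replicate 3 (0.049), and over the other settings it ranged from 0.0027 by DESeq2 to 0.086 with the replicate number as a block. Over time c2 was 3.08-fold higher at 15 DAP than at 10 DAP in L100 (log2 fold change 1.62 with SE 0.39, adjusted p = 0.011), with no overlap. In wild type its log2 fold change was 1.004 (SE 0.39, adjusted p = 0.073), again with no overlap between stages. The wild-type difference passed by DESeq2 (0.024), with the compared groups alone (0.035), and without L100 10 DAP replicate 3 (0.045) or wild-type 15 DAP replicate 2 (0.046). Its adjusted p reached 0.255 without wild-type 15 DAP replicate 3. The interaction of c2 was 0.62 (SE 0.54, adjusted p = 0.62), so a difference between the lines in this change was not established.

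The duplicate whp1 (GRMZM2G151227; chromosome 2, 224558368 to 224561742, minus strand) was a gene of few counts in 3 of the 4 groups. At 10 DAP it had 6.82, 15.7 and 1.10 CPM in L100, from 118, 293 and 21 counts, against 0.316, 0.0668 and 0.650 CPM in wild type, from 5, 1 and 12 counts. Every L100 library lay above every wild-type library, while the L100 libraries themselves differed widely, with replicate 3 lowest. The log2 fold change was 4.45 (SE 1.18, adjusted p = 0.073). Its adjusted p was below 0.05 without L100 10 DAP replicate 3 (0.024, log2 fold change 4.94) and by DESeq2 (0.0015). It reached 0.237 without wild-type 10 DAP replicate 2 (3.98) and 0.277 by limma-voom. The log2 fold change was 3.47 without L100 10 DAP replicate 2, 5.27 without wild-type 10 DAP replicate 3 and 2.21 on the log2(FPKM + 1) scale. At 15 DAP whp1 had 0.563, 1.39 and 1.15 CPM in L100, against 0.516, 0 and 0 CPM in wild type, where the last 2 libraries held 0 counts, which allows up to 0.185 and 0.152 CPM. The log2 fold change of 2.55 (SE 1.27, adjusted p = 0.26) rests on 9 wild-type counts in 1 library, without which wild type at 15 DAP held 0 counts. From stage to stage the log2 fold change was -2.93 in L100 (SE 1.07, adjusted p = 0.069) and -1.02 in wild type (SE 1.35, adjusted p = 0.61). The value in L100 passed by DESeq2 (0.024), by library totals (0.038), and without L100 10 DAP replicate 3 (0.026, log2 fold change -3.43) or wild-type 15 DAP replicate 1 (0.044). It was -1.94 without L100 10 DAP replicate 2, where the adjusted p was 0.265. In wild type the value was -0.20 without 10 DAP replicate 3, and without 15 DAP replicate 1 no fold is given, since the other libraries of that group held 0 counts.

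The 2 chalcone synthase genes are near-identical copies, and how the authors' counting shared reads between them is not stated, so the split is uncertain. By deposited FPKM, which is scaled for length, whp1 made up 22.7%, 34.4% and 8.14% of the pair's summed level in L100 at 10 DAP, against 3.20%, 0.471% and 4.42% in wild type. At 15 DAP its share was 1.22%, 2.12% and 1.15% in L100, against 2.06%, 0% and 0% in wild type. The share was thus highest in the 3 L100 libraries at 10 DAP, and at 15 DAP c2 gave nearly the whole of the pair's FPKM in both lines.

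Chalcone isomerase, encoded by chi1 (GRMZM2G155329; chromosome 1, 293118446 to 293119572, minus strand), was the most abundant of the 8 transcripts by FPKM in every group. It had 97.7, 112 and 178 CPM in L100 at 15 DAP, against 129, 145 and 117 CPM in wild type. Levels at 10 DAP were 159, 152 and 31.8 CPM in L100, against 137, 136 and 130 CPM in wild type. The L100 groups spread on both sides of wild type at each stage, and L100 replicate 3 at 10 DAP stood far below the other 11 libraries. The log2 fold changes of L100 over wild type were -0.01 at 15 DAP (SE 0.46, adjusted p = 0.99) and -0.24 at 10 DAP (SE 0.46, adjusted p = 0.82). Those of 15 over 10 DAP were 0.18 in L100 and -0.05 in wild type (SE 0.46 each, adjusted p = 0.81 and 0.95). The sign of each of these 4 values depended on single libraries.

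Flavanone 3-hydroxylase, encoded by fht1 (GRMZM2G062396; chromosome 2, 3561590 to 3563021, plus strand), carries the pathway to dihydroflavonols. In L100 it had 0.376, 0.973 and 0.307 CPM at 15 DAP, from 6, 14 and 4 counts, against 28.3, 34.9 and 24.6 CPM at 10 DAP. In wild type it had 2.12, 0.370 and 1.01 CPM at 15 DAP, from 37, 6 and 20 counts, against 35.0, 18.6 and 20.7 CPM at 10 DAP. Every library at 10 DAP lay well above every library at 15 DAP. The gene was 52.2-fold lower at 15 DAP in L100 (log2 fold change -5.71 with SE 0.56, adjusted p = 8.3e-05) and 21.0-fold lower in wild type (-4.39, SE 0.50, adjusted p = 0.00012). These fold changes carry the counting error of a few counts per library: the log2 value was -6.38 without L100 15 DAP replicate 2, and in wild type -5.11 without 15 DAP replicate 1. Between the lines the log2 fold change was -1.08 at 15 DAP (SE 0.62, adjusted p = 0.34) and 0.24 at 10 DAP (SE 0.40, adjusted p = 0.79). The interaction, which is the log2 fold change between the lines at 15 DAP less the one at 10 DAP, was -1.32 (SE 0.74, adjusted p = 0.41).

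Flavonoid 3'-hydroxylase, the product of pr1 (GRMZM2G025832; chromosome 5, 180084241 to 180085968, minus strand), adds the second hydroxyl of the B ring and so separates red from purple pigments. The reference table gives no name for this model, and pr1 is the name that came with the choice of genes. At 10 DAP it had 23.0, 19.3 and 7.001 CPM in L100, against 2.27, 1.54 and 2.06 CPM in wild type. All L100 libraries were above all wild-type libraries, and the lowest was again replicate 3. The log2 fold change was 3.06 (SE 0.63, adjusted p = 0.030). The adjusted p rose past the threshold without L100 10 DAP replicate 1 (0.068) or 2 (0.077), without wild-type 10 DAP replicate 1 (0.097), 2 (0.134) or 3 (0.093), and without wild-type 15 DAP replicate 3 (0.0503), with log2 fold changes of 2.72 to 3.17 in these fits. It was 0.087 by limma-voom, 0.065 with the replicate number as a block and 0.010 without L100 10 DAP replicate 3. On the log2(FPKM + 1) scale the fold change was 2.27, with an adjusted p of 0.037.

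At 15 DAP pr1 had 2.94, 5.63 and 14.3 CPM in L100, against 1.72, 4.87 and 3.89 CPM in wild type. The groups overlapped, with L100 replicate 3 highest, and the log2 fold change of 1.12 did not pass (SE 0.60, adjusted p = 0.30). Without L100 15 DAP replicate 3 it was 0.29 (adjusted p = 0.82). The interaction was -1.94 (SE 0.85, unadjusted p = 0.043, adjusted p = 0.28), and -2.77 without that library (adjusted p = 0.133), so a smaller line difference at 15 DAP than at 10 DAP was not established. Between the stages the log2 fold change was -1.11 in L100 (SE 0.58, adjusted p = 0.19) and 0.83 in wild type (SE 0.62, adjusted p = 0.34). Without L100 15 DAP replicate 3 the value in L100 was -1.94 with an adjusted p of 0.033. It was -0.72 when replicate 1 of the same group was left out (0.416).

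Dihydroflavonol 4-reductase, encoded by a1 (GRMZM2G026930; chromosome 3, 216386331 to 216387760, minus strand), forms leucoanthocyanidins and, in the pericarp, phlobaphene precursors. It had 23.7, 33.2 and 59.0 CPM in L100 at 15 DAP, against 145, 140 and 97.6 CPM at 10 DAP. In wild type it had 11.9, 20.04 and 24.4 CPM at 15 DAP, against 94.6, 64.4 and 58.9 CPM at 10 DAP. The stages did not overlap in either line. The gene was 3.31-fold lower at 15 DAP in L100 (log2 fold change -1.73 with SE 0.35, adjusted p = 0.0053) and 3.86-fold lower in wild type (-1.95, SE 0.36, adjusted p = 0.0023). In L100 a1 stood above all wild-type libraries at 10 DAP and overlapped them by 1 library at 15 DAP. Its log2 fold changes of L100 over wild type were 1.04 at 15 DAP (SE 0.35, adjusted p = 0.11) and 0.81 at 10 DAP (SE 0.34, adjusted p = 0.22). DESeq2 called the difference at 15 DAP (adjusted p = 0.024), and without L100 15 DAP replicate 3 it was 0.59 (edgeR adjusted p = 0.331).

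Anthocyanidin synthase, encoded by a2 (GRMZM2G345717; chromosome 5, 66137764 to 66138999, plus strand), oxidises leucoanthocyanidins to the coloured anthocyanidins. It was low throughout, with 9 to 25 counts per library. It had 1.06, 1.11 and 0.843 CPM in L100 at 15 DAP, against 0.745, 0.555 and 0.556 CPM in wild type. Its levels at 10 DAP were 1.16, 1.29 and 1.31 CPM in L100, against 0.695, 0.802 and 0.866 CPM in wild type. By CPM the L100 libraries lay above the wild-type libraries at both stages, without overlap. At 15 DAP the lowest L100 library had 11 counts and the highest wild-type library 13, so the separation there rests on the scaling. The log2 fold changes of 0.70 at 15 DAP (SE 0.38, adjusted p = 0.31) and 0.66 at 10 DAP (SE 0.37, adjusted p = 0.36) did not pass. Between the stages they were -0.31 in L100 (SE 0.37, adjusted p = 0.59), where the stages did not overlap by CPM, and -0.35 in wild type (SE 0.39, adjusted p = 0.53), where they did. By deposited FPKM the stages overlapped in L100 as well.

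The flavonoid 3-glucosyltransferase gene bz1 (GRMZM2G165390; chromosome 9, 11779762 to 11781327, minus strand) provides the glucose that stabilises anthocyanidins. It had 9.83, 6.60 and 2.61 CPM in L100 at 15 DAP, against 4.47, 5.98 and 6.62 CPM in wild type. At 10 DAP the levels were 9.89, 11.1 and 10.9 CPM in L100, against 10.3, 7.82 and 11.7 CPM in wild type. The lines overlapped at both stages, with log2 fold changes of 0.16 at 15 DAP (SE 0.36, adjusted p = 0.84) and 0.10 at 10 DAP (SE 0.35, adjusted p = 0.91). Levels in CPM at 15 DAP lay below those at 10 DAP without overlap in both lines. In L100 the gap was only 9.83 against 9.89 CPM, and by deposited FPKM the stages overlapped there. The log2 fold changes were -0.74 in L100 (SE 0.36, adjusted p = 0.16) and -0.80 in wild type (SE 0.36, adjusted p = 0.11). The adjusted p was 0.038 in L100 without L100 15 DAP replicate 1, and 0.018 in wild type without L100 15 DAP replicate 3. The wild-type difference also passed by library totals (0.038) and with the compared groups alone (0.023), and over leaving out single libraries its adjusted p reached 0.270. In L100 the log2 fold change was -0.37 without L100 15 DAP replicate 3 (adjusted p = 0.317).

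**Figure D2:**
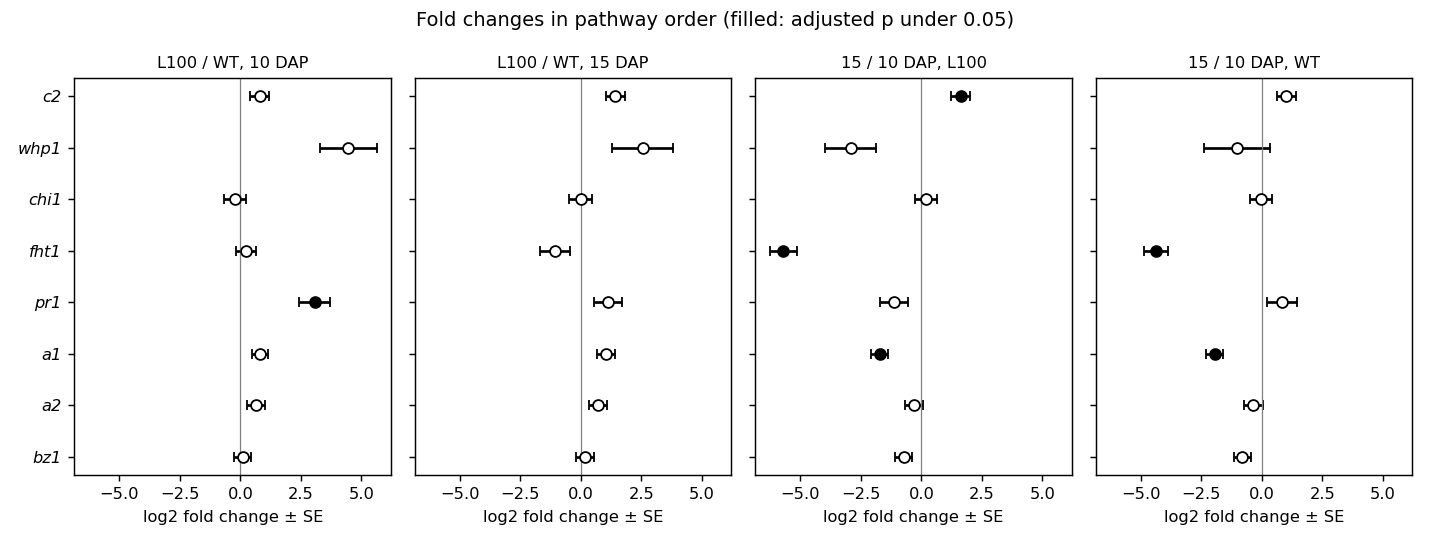
Log2 fold changes of the 8 genes (x axis) with their SE as bars, for L100 over WT at each stage and for 15 over 10 DAP in each line; filled points passed an edgeR adjusted p of 0.05. Filled points are pr1 at 10 DAP (3.06), c2 in L100 over time (1.62), and fht1 and a1 over time in both lines.

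Set beside all tested genes, L100 seeds at 10 DAP had 1 of the 8 called higher and 0 called lower, where 1.76% of all genes were called higher and 1.24% lower, 3% in all. At 15 DAP edgeR called 0 of the 8, where it called 6.66% of all genes, 3.57% higher and 3.09% lower. Of the 8, 2 were under 0.05 before adjustment, 2 were called by DESeq2 and 1 by limma-voom. Each share of all genes called, here and below, is by edgeR after adjustment, and none is given before adjustment or by the other tools. The L100 libraries lay above wild type without overlap in 4 of the 8 at 10 DAP, against 13.3% of all genes. These were whp1, pr1, a1 and a2. At 15 DAP the L100 libraries did so in 3 of the 8, against 14.6%, namely c2, whp1 and a2. For whp1 and a2 at 15 DAP this rests on few counts and on the scaling between libraries. The lowest L100 and the highest wild-type library had 9 and 9 counts for whp1, and 11 and 13 for a2. None of the 8 lay below wild type without overlap at either stage, against 14.1% of all genes at 10 DAP and 15.4% at 15 DAP. The median log2 fold change of the 8 was 0.73 at 10 DAP and 0.87 at 15 DAP, where those of all genes were 0.01 and -0.01.

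Between the stages, 1 of the 8 was called higher and 2 lower at 15 DAP in L100, where 12.2% and 12.6% of all genes were, 24.9% in all. In wild type edgeR called 0 higher and 2 lower, where 16.1% and 15.3% of all genes were, 31.4% in all. In either direction 4 of the 8 were under 0.05 there before adjustment, DESeq2 called 3, with c2 as higher, and limma-voom called 2. Without overlap by CPM, 1 gene lay higher and 4 lower at 15 DAP in L100, against 19% and 20.4% of all genes. In wild type 1 lay higher and 3 lower, against 25.6% and 26.1%. Of the 4 in L100, bz1 was separated by only 9.83 against 9.89 CPM and a2 by 1.11 against 1.16 CPM. By deposited FPKM the stages of bz1 and a2 overlapped in L100. The medians of the 8 were -0.92 in L100 and -0.58 in wild type, where those of all genes were -0.03 and -0.01. For the interaction edgeR called 0 of the 8, where it called 0.545% of all genes, 0.273% in each direction. Of the 8, 1 was under 0.05 before adjustment, and 0 were called by DESeq2 or limma-voom. The 2 genotype comparisons and the 2 stage comparisons use the same 12 libraries, so their values for a gene are not independent.

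Levels of different genes were compared by the deposited FPKM only. At 15 DAP the order in L100 was chi1 (211 ± 67.4 FPKM), c2 (55.4 ± 20.5), a1 (43.2 ± 17.7), bz1 (6.43 ± 3.65), pr1 (4.41 ± 3.37), a2 (1.03 ± 0.143), whp1 (0.826 ± 0.338) and fht1 (0.443 ± 0.297), each as mean ± SD of n = 3. The libraries of neighbours in this order overlapped, except for chi1 and c2, a1 and bz1, and pr1 and a2. In wild type at 15 DAP it was chi1 (224 ± 16.5 FPKM), a1 (23.1 ± 8.05), c2 (21.3 ± 8.44), bz1 (5.90 ± 0.446), pr1 (2.10 ± 0.928), fht1 (0.989 ± 0.775), a2 (0.655 ± 0.142) and whp1 (0.146 ± 0.253). Here a1 and c2, pr1 and fht1, and fht1 and a2 overlapped.

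At 10 DAP the order in L100 was chi1 (208 ± 133 FPKM), a1 (151 ± 30.7), fht1 (25.9 ± 8.06), c2 (19.3 ± 9.51), bz1 (10.7 ± 2.18), pr1 (10.7 ± 5.67), whp1 (7.21 ± 7.31) and a2 (1.32 ± 0.242), and only a1 and fht1 were neighbours without overlap. In wild type at 10 DAP it was chi1 (228 ± 13.2 FPKM), a1 (81.8 ± 24.4), fht1 (20.2 ± 7.36), c2 (10.3 ± 2.14), bz1 (9.49 ± 2.003), pr1 (1.18 ± 0.207), a2 (0.761 ± 0.0689) and whp1 (0.275 ± 0.226), and only c2 and bz1 overlapped. Among the models detected in a group, the percentile of chi1 by mean FPKM was 96.9 in L100 and 96.8 in wild type at 15 DAP, and 97.1 in L100 and 97.0 in wild type at 10 DAP. The percentile of fht1 was 18.1 in L100 and 27.7 in wild type at 15 DAP, against 79.1 in L100 and 74.4 in wild type at 10 DAP.

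**Figure D3:**
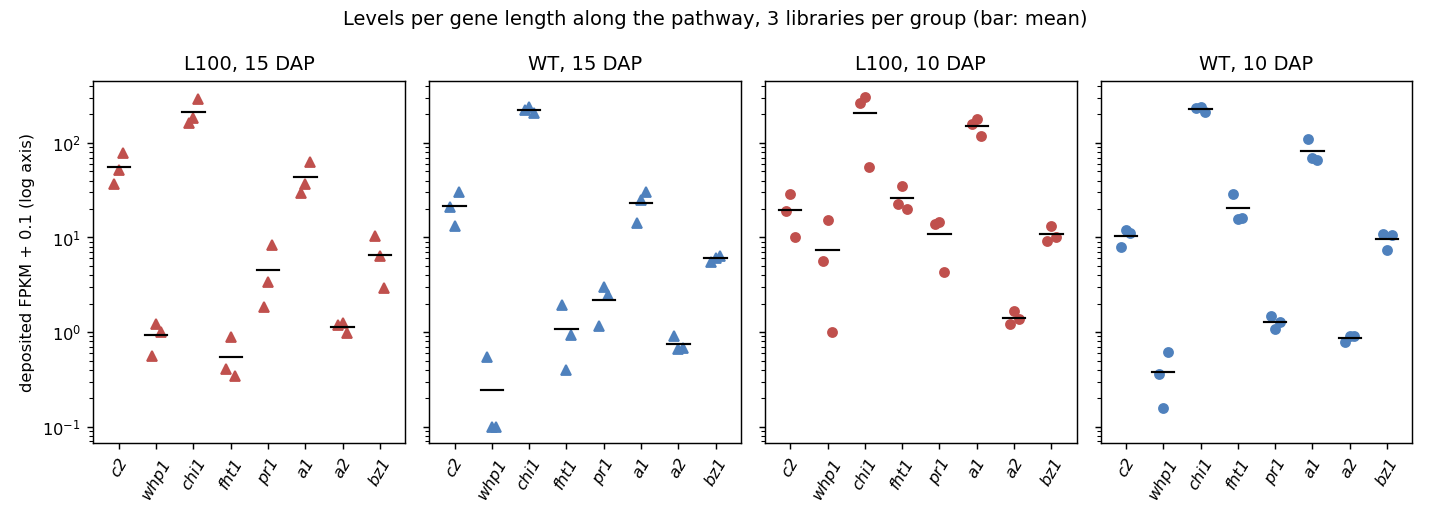
Deposited FPKM of the 8 genes in pathway order (log y axis, FPKM + 0.1; points are libraries, bars the mean of 3), for L100 and WT at 15 and 10 DAP. The gene chi1 is highest in every group, a2 is at or below 1.32 FPKM in every group mean, fht1 averages 0.443 FPKM in L100 and 0.989 FPKM in WT at 15 DAP, and whp1 points at 0.1 are libraries listed at 0.

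The 8 genes did not vary together over the 12 libraries. The highest Pearson correlations of log2(CPM + 1) between members were 0.81 for fht1 with a1 and 0.81 for whp1 with pr1, and the lowest was -0.67 for c2 with fht1. With group means removed, fht1 and a1 correlated at -0.07 and whp1 and pr1 at 0.50, while pr1 and a1 correlated at 0.88, whp1 and chi1 at 0.84, and a1 and a2 at -0.89. These correlations are descriptions, since points share lines, stages and single libraries. L100 replicate 3 at 15 DAP was highest of its group in c2, chi1, pr1 and a1 and lowest in fht1, a2 and bz1.

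Among all tested genes, the profile over the 12 libraries most like that of fht1 belonged to GRMZM2G112792 (Pearson r = 0.986) and to the cyclin gene cyc3 (0.985). For a1 they were GRMZM2G164090 (0.970), GRMZM2G028535 (0.966) and a histone H4 model, GRMZM2G149178 (0.965). For a2 the most alike was the lipoxygenase gene lox3 (0.972) and for bz1 the alpha-tubulin gene tua4 (0.967). For the others it was an unnamed model: GRMZM2G086971-2 for c2 (0.946), GRMZM2G034113 for whp1 (0.958), GRMZM2G017847 for chi1 (0.957) and GRMZM2G063550 for pr1 (0.936). No member was among the 3 most alike of another.

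The genes whp1 and fht1 share chromosome 2 and pr1 and a2 share chromosome 5, far apart in both cases, and none of the 8 overlaps another listed model. The 5 nearest tested models on either side of each gene were examined, 80 in all. Of these neighbours, edgeR called 3 different between the lines at 15 DAP, 2 of them higher in L100, where 6.66% of all genes were called. Before adjustment 19 were under 0.05 at that stage, with 7 called by DESeq2 and 3 by limma-voom. At 10 DAP 20 were under 0.05 before adjustment, with 7 called by DESeq2 and 0 by limma-voom. There edgeR called 1, which was lower, where 3% of all genes were called. Shares of all genes before adjustment or by the other tools are not given, so no excess can be read from those counts. Around pr1, over chromosome 5 from 179910679 to 180490604, it called 0 of the 10 neighbours at 10 DAP, with 3 under 0.05 before adjustment, 2 called by DESeq2 and 0 by limma-voom.

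Regulators of the pathway were read from a list of 10 models, of which 5 were tested. The regulators c1, pl1 and r1 were not among the tested: c1 had 0 to 2 counts per library, pl1 0 to 2 and r1 0 to 8. No model matched b1. Between the lines edgeR called 0 of the 5 at 15 DAP, with 0 under 0.05 before adjustment and 0 called by DESeq2 or limma-voom. At 10 DAP it also called 0, with 1 under 0.05 before adjustment and 0 by either other tool.

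Over time, vp1, the B3 factor of seed maturation that also acts on c1, was higher at 15 DAP in both lines. It had 82.7, 72.8 and 73.5 CPM in L100 at 15 DAP, against 42.7, 13.9 and 21.99 CPM at 10 DAP (log2 fold change 1.55, SE 0.32, adjusted p = 0.0058). In wild type it had 66.2, 54.9 and 46.9 CPM at 15 DAP, against 19.3, 27.0 and 26.1 CPM at 10 DAP (1.21, SE 0.32, adjusted p = 0.015). The stages did not overlap in either line, but the call in wild type ended without 10 DAP replicate 1 (0.075) or 15 DAP replicate 1 (0.053). The pericarp regulator p1 had 1.38, 2.02 and 3.91 CPM in L100 at 15 DAP, against 0.925, 0.161 and 0.627 CPM at 10 DAP (2.08, SE 0.62, adjusted p = 0.029). That call ended when any of 4 L100 libraries was left out: 10 DAP replicate 2 (0.074) and 3 (0.061), 15 DAP replicate 2 (0.051) and 3 (0.111). It also ended with the replicate number as a block (0.053) and with the compared groups alone (0.072), and on the log2(FPKM + 1) scale the change was 0.98. In wild type the log2 fold change of p1 over time was 0.79 (SE 0.59, adjusted p = 0.34). Its interaction was 1.29 (SE 0.85, adjusted p = 0.48), so a difference between the lines in this change was not established. Of the 2 models named pac1, a WD40 protein of the pigment complex, GRMZM2G058432 was lower at 15 DAP in L100 (-0.57, adjusted p = 0.033) and in wild type (-0.89, adjusted p = 0.0025). The other, GRMZM2G058292, was higher at 15 DAP in wild type (0.79, adjusted p = 0.021) and at 0.35 in L100, which did not pass. Single libraries ended the L100 call of GRMZM2G058432 (L100 10 DAP replicate 2 or 3, L100 15 DAP replicate 1 or 2; adjusted p up to 0.124). They also ended that of GRMZM2G058292 (wild-type 10 DAP replicate 1 or 2, 15 DAP replicate 2 or 3; up to 0.10). The L100 call of GRMZM2G058432 also ended with the compared groups alone (0.076) and on the log2(FPKM + 0.1) and log2(FPKM + 1) scales (0.098 and 0.096). The wild-type call of GRMZM2G058292 ended by library totals (log2 fold change 0.47, adjusted p = 0.143).

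**Figure D4:**
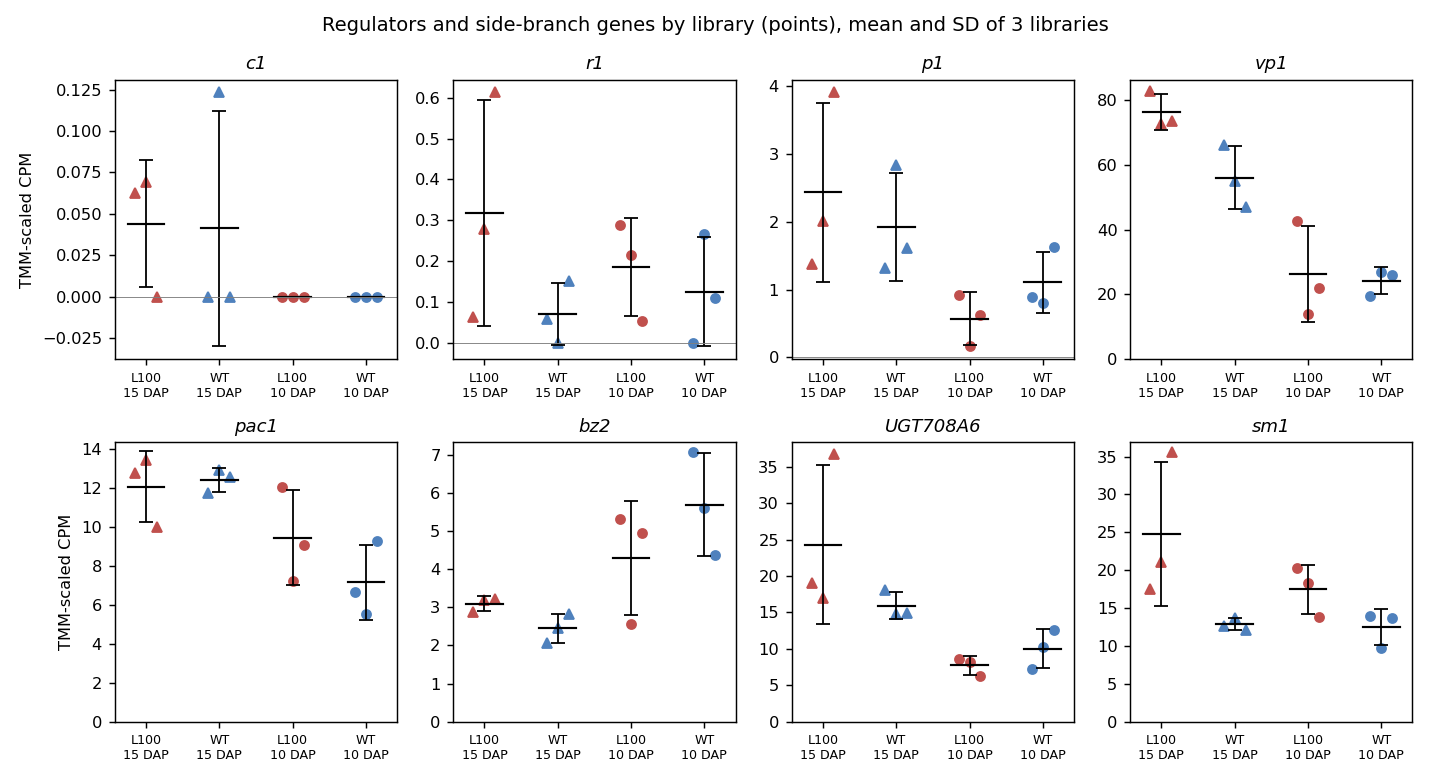
Levels of 5 regulator models and 3 late or side-branch genes in the 12 libraries (y axis, TMM-scaled CPM; points are libraries, bars mean and SD of 3); pac1 is GRMZM2G058292. The gene c1 has 0 to 2 counts per library, vp1 is higher at 15 DAP in both lines, and sm1 reaches 35.6 CPM in L100 replicate 3 at 15 DAP.

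Of 9 models for late steps, transport and side branches, 7 were tested. At 15 DAP 2 were under 0.05 between the lines before adjustment, with 2 called by DESeq2 and 0 by limma-voom. There edgeR called 1 higher and 0 lower in L100, where 3.57% and 3.09% of all genes were. This was sm1, a rhamnose synthase gene known for the maysin branch, with 17.6, 21.1 and 35.6 CPM in L100, against 12.7, 13.8 and 12.2 CPM in wild type (log2 fold change 0.94, SE 0.25, adjusted p = 0.045). The lines did not overlap, but the call ended when L100 15 DAP replicate 2 (0.074) or 3 (0.133) was left out, and likewise for wild-type 15 DAP replicate 1 (0.103), 2 (0.108) or 3 (0.127), or wild-type 10 DAP replicate 1 (0.056) or 3 (0.058). It ended as well by limma-voom (0.063), with the compared groups alone (0.067), with the replicate number as a block (0.084), and on the log2(FPKM + 0.1) and log2(FPKM + 1) scales (0.085 and 0.083). At 10 DAP edgeR called 0 of the 7, with 0 under 0.05 before adjustment and 0 called by DESeq2 or limma-voom.

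Between the stages 1 of these 7 was higher at 15 DAP in L100, where 12.2% of all genes were. In wild type 2 were lower, where 15.3% of all genes were. In L100 the C-glycosyltransferase gene UGT708A6 had 19.1, 17.0 and 36.8 CPM at 15 DAP, against 8.67, 8.25 and 6.27 CPM at 10 DAP (log2 fold change 1.65, SE 0.29, adjusted p = 0.0021). In wild type bz2, the glutathione transferase needed to bring anthocyanin into the vacuole, had 2.06, 2.47 and 2.83 CPM at 15 DAP, against 7.08, 5.61 and 4.39 CPM at 10 DAP (-1.21, SE 0.31, adjusted p = 0.011). The other was a model named mate1 (-1.09, SE 0.27, adjusted p = 0.0094), which like those named omt1 and mrp4 on this list is known for other roles. Each of the 3 had the same direction in the other line without passing. The log2 fold change of UGT708A6 in wild type was 0.66 (adjusted p = 0.10), with no overlap between stages. In L100 it was -0.47 for bz2 (adjusted p = 0.29) and -0.27 for mate1 (0.50). None passed the test of the interaction (adjusted p = 0.26, 0.42 and 0.30). The phenylalanine ammonia-lyase model pal1, at the entry to the phenylpropanoids, averaged 842 CPM in L100 and 1138 CPM in wild type at 15 DAP, and 1132 CPM in L100 and 814 CPM in wild type at 10 DAP. It passed no test. Nor did any of the 4 tested models of the lignin branch, where edgeR called 0 between the lines at each stage, with 1 at 15 DAP and 2 at 10 DAP under 0.05 before adjustment, 1 at each stage by DESeq2 and 0 by limma-voom.

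The aleurone, where kernel anthocyanin is made, was followed by 5 marker models. Their summed level was 702 to 825 CPM in L100 and 615 to 716 CPM in wild type at 15 DAP, and 327 to 653 CPM in L100 and 506 to 553 CPM in wild type at 10 DAP. Most of this was nkd1, which at 15 DAP averaged 463 of 758 CPM in L100 and 366 of 679 CPM in wild type. Whether these 5 models are confined to the aleurone was not examined. All 5 were among the tested genes. Between the lines edgeR called 0 of them, with 1 at 15 DAP and 0 at 10 DAP under 0.05 before adjustment and 0 called by DESeq2 or limma-voom. Over time edgeR called 1 higher at 15 DAP in each line, but a different gene in each. In L100 it was nkd1 (log2 fold change 0.98, adjusted p = 0.023), which was at 0.29 in wild type (adjusted p = 0.45). In wild type it was dek1 (1.03, adjusted p = 0.0072), which was at -0.02 in L100 (adjusted p = 0.93). The 5 embryo marker models summed to 1747 to 2995 CPM in L100 and 913 to 1204 CPM in wild type at 15 DAP. At 10 DAP they summed to 192 to 609 CPM in L100 and 287 to 481 CPM in wild type. Of the 5, edgeR called 1 higher in L100 at each stage and 3 higher at 15 DAP in each line. The name glb1 matched 2 of these models, and of these GRMZM2G067402 is also named Hb and Hbm. It may therefore not be the globulin gene, and the sums and calls include it. The 6 starchy endosperm markers, all of them called higher at 15 DAP in each line, summed to 81954 to 119712 CPM in L100 at 15 DAP, against 2385 to 11029 CPM at 10 DAP. In wild type they summed to 69799 to 90778 CPM at 15 DAP, against 5905 to 10499 CPM at 10 DAP.

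The markers of the basal transfer layer, through which sugars enter the endosperm, moved the other way. Of the 4 models, edgeR called 3 lower at 15 DAP in L100 and 4 in wild type, with median log2 fold changes of -1.74 and -1.76. Their summed level was 603 to 674 CPM in L100 and 478 to 792 CPM in wild type at 15 DAP, against 849 to 1577 CPM in L100 and 1297 to 1890 CPM in wild type at 10 DAP. Between the lines 1 of the 4 was called lower in L100 at each stage. Of the 3 markers of the embryo surrounding region 2 were tested, and both were called lower at 15 DAP in wild type. In L100 edgeR called 0 of them, with 1 under 0.05 before adjustment and 0 called by DESeq2 or limma-voom. Their list summed to 11.1 to 14.9 CPM in L100 and 2.35 to 8.13 CPM in wild type at 15 DAP, against 13.0 to 47.6 CPM in L100 and 15.2 to 54.5 CPM in wild type at 10 DAP. The 3 green leaf markers summed to at most 35.0 CPM in any library, with 1 called higher at 15 DAP in L100, and 2 called higher and 1 lower in wild type. The part of tissue composition in the differences of the 8 genes was not tested, and markers of the maternal pericarp were not examined.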

How the data were processed

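RNA-seq of whole maize seeds was analysed in 12 libraries, 3 for each of 4 groups set by the labels' genotype and stage. The submitters' processing notes name Bowtie 0.12.2 and B73 RefGen_v3, with quantifier, filters, annotation and strand not given in the sources used here. Per the file headers, each deposited table holds expected counts, FPKM and a normalized signal for 41430 models. The deposited counts are whole numbers; the signal, read as an unrounded estimate times 1 factor per library (inferred from the values), served only for an alternative.

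Tests on the counts used edgeR 4.0.16 in R 4.3.3: TMM scaling, filterByExpr, a robust quasi-likelihood fit of all 12 libraries with 1 mean per group, two-sided F tests on 24941 genes and Benjamini-Hochberg adjustment within each of 5 comparisons. SE is the log2 fold change divided by the square root of F. Floors of 3 counts cover counting error only. FPKM, scaled by the authors for length and depth, set the order of genes. Gene names, and nothing else, were taken from a RefSeq gene table for Zm-B73-REFERENCE-NAM-5.0, which matched 18021 models; of the names listed for late, transport and side-branch genes 9 of 43 matched. The 8 genes were named whatever their result, and so, where matched, were the regulators c1, pl1, r1, b1, p1, pac1 and vp1. Other list genes were named if they passed a test, and pal1 was named after its values were seen. For each of the 8 genes the 3 models most alike by Pearson correlation were taken. The genes, lists and rules were chosen with earlier results of these data known. Alternatives were DESeq2 1.42.0, limma-voom (limma 3.58.1), RLE scaling, library totals, no filter, a minimum of 5 CPM in 3 libraries, a replicate block, the compared groups alone, limma on log2(FPKM + 1) and log2(FPKM + 0.1) of genes with FPKM of at least 1 in 3 libraries, and leaving out each library. Unrounded estimates were added after seeing the data. The steps were tested on simulated data.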

Additional observations from a re-analysis of the deposited data

How the results depend on the processing

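The stage differences of fht1 and a1 in both lines and of c2 in L100 kept their direction and passed under every alternative run. The number of the 8 genes called at 10 DAP was 1, against 2 by DESeq2, 0 by limma-voom and 0 with the replicate block, and 0 to 2 when single libraries were left out. At 15 DAP it was 0, against 2 by DESeq2 and 1 by limma-voom, by library totals and with at least 5 CPM in 3 libraries, and 0 to 1 without single libraries. Over time it was 3 in L100 (3 to 4 without single libraries) and 2 in wild type (2 to 3), with 4 in wild type from the compared groups alone. The interaction stayed at 0. Replicate numbers did not pair the libraries (correlations of deviations -0.113 to 0.0528), so the block is an alternative only. Among all genes, the number called ranged over the alternatives from 390 to 2006 at 10 DAP, from 1073 to 2889 at 15 DAP and from 26 to 1076 for the interaction. Leaving out single libraries gave 236 to 1261, 615 to 1869 and 11 to 221.

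Library totals in place of TMM shifted the median over all genes of the difference between the lines (log2) by 0.093 at 15 DAP and 0.073 at 10 DAP, and that over time by -0.30 in L100 and -0.32 in wild type. Signs turned only in values that passed no test, and the cause was not tested. For L100 over wild type at 15 DAP, chi1 was 0.023 with at least 5 CPM, 0.063 by library totals, 0.0011 without a filter and 0.033 with the replicate block. The model pac1 GRMZM2G058292 was 0.00087 with at least 5 CPM and 0.065 by library totals, and pac1 GRMZM2G058432 was 0.025 by library totals and 0.034 on both FPKM scales. On log2(FPKM + 0.1) bz1 was -0.051, and on log2(FPKM + 1) it was -0.022. At 10 DAP vp1 was -0.033 by limma-voom. Over time in L100, chi1 was -0.14 by library totals. The interaction on log2(FPKM + 0.1) and log2(FPKM + 1) was -0.0068 and -0.027 for a1, -0.12 and -0.10 for a2, and -0.23 and -0.19 for bz1, which was -0.077 by limma-voom.

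Without single libraries, chi1 ranged from -0.58 to 0.19 at 10 DAP, -0.32 to 0.15 at 15 DAP, -0.26 to 0.52 over time in L100, -0.13 to 0.027 over time in wild type and -0.19 to 0.59 for the interaction. At 10 DAP bz1 ranged from -0.061 to 0.21 and vp1 from -0.45 to 0.42. At 15 DAP bz1 ranged from -0.30 to 0.53, p1 from -0.18 to 0.72, pac1 GRMZM2G058292 from -0.12 to 0.079 and pac1 GRMZM2G058432 from -0.19 to 0.066. The interaction ranged from -0.22 to 0.48 for a1, -0.039 to 0.19 for a2, -0.40 to 0.43 for bz1 and -2.70 to 2.67 for whp1, where the upper value leaves wild type at 15 DAP with 0 counts. Depth limits whp1, a2 and, at 15 DAP, fht1, whose counts per library were as low as 0, 9 and 4.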
